A study of Arabidopsis thaliana with 15 samples.

Results

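The comparison described here is that of Arabidopsis pollen tubes after 4 h of growth in liquid medium (4 h PT) with pollen that had spent 0.5 h in the same medium (0.5 h PT), a step that leads from hydration and the first emergence of a tube to tube elongation. It rests on 8 of the 15 ATH1 arrays of the series, 4 of 4 h PT and 4 of 0.5 h PT, chosen by the titles of the samples alone. All pollen was from wild-type Columbia (Col-0) plants, and that of both conditions was collected dry by vacuum into growth medium, spun down and frozen before total RNA was extracted. The other 7 arrays, 4 of dry pollen and 3 of tubes collected below an excised stigma and style that they had traversed (SIV PT, semi in vivo), entered the fit and give levels for other states of pollen. SIV PT grew in pistils of the male sterile mutant ms1, of the Landsberg ecotype, and were cut off as bundles without grains, so they differ from 4 h PT in more than age. Each sample is a whole suspension, and by the study's germination counts a large minority of the grains in 4 h PT had no tube. A lower share of germinated grains and less of a transcript per tube therefore cannot be told apart. The labels call the replicates biological and give no culture or plant for them, so p-values measure the spread between these samples.

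A pollen tube grows only at its tip. Secretion at the apex adds membrane and wall there, and depends on the actin cytoskeleton, ROP GTPases, calcium and proton gradients and on receptor kinases of the cell surface, while enzymes in the wall adjust its pectin and sugar transporters feed the tube from outside. A mature Arabidopsis grain is known to be loaded with transcripts and proteins before it is shed, and a tube can emerge on that store.

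Signals are the arrays' scaled intensities, and differences between conditions are on the log2(signal + 64) scale, which understates changes near the floor. A probe set counts as changed where limma's log odds B exceed 3 and the difference is at least 3-fold. By that rule 116 probe sets rose in 4 h PT against 0.5 h PT, 0.510% of the 22746 tested, and 0 fell (0%). The 116 rises ran from 1.62 to 4.92 with a median of 2.64, against a median of 0.004 over all probe sets. Their median signal was 1860 in 4 h PT and 179 in 0.5 h PT, and 71 of them had a 0.5 h PT mean under a log2 signal of 8, used here as the limit of expression. At an adjusted p below 0.05 with no limit on the fold, 287 probe sets were higher (1.26%) and 34 lower (0.149%), and at an unadjusted p below 0.05 1360 were higher (5.98%) and 1181 lower (5.19%). Every 4 h PT array lay above every 0.5 h PT array for 805 probe sets (3.54%) and below for 678 (2.98%), and all 116 rises were among the 805. Of the 116, 103 match 1 named gene. With only the 8 arrays of this comparison in the fit, which leaves fewer degrees of freedom, 45 of the 116 passed, and of 35 named rises 17 kept the call.

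**Figure D1:**
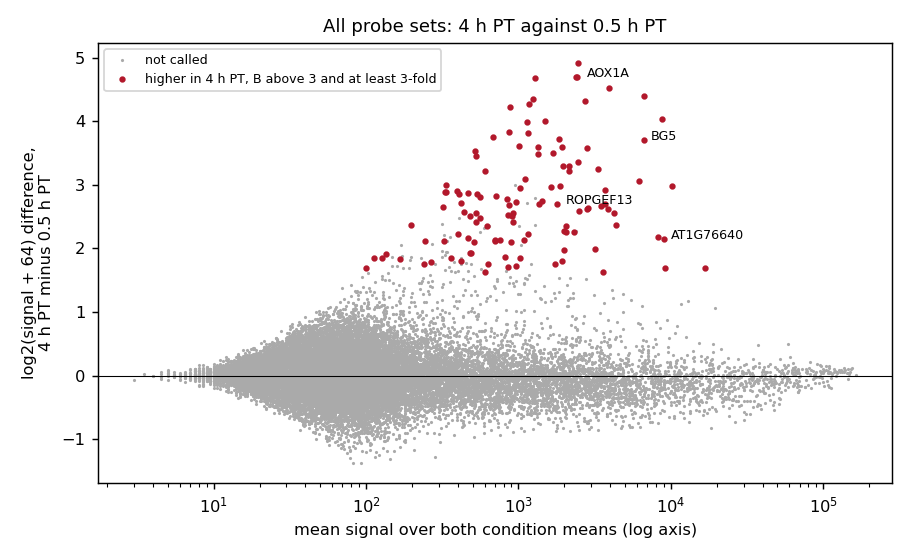
Each point is 1 of the 22746 probe sets, with its mean signal over the 8 arrays on a log axis and its log2(signal + 64) difference, 4 h PT minus 0.5 h PT, on the vertical axis. The 116 rises (red) spread up to 4.92 above a cloud centred on 0, no probe set lies below -1.37, and the probe sets with the strongest signals sit close to the zero line.

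The labelled material was checked on markers, few of which match 1 measured gene. The sperm cell histone gene MGH3 stood at 8412 to 10064 in 4 h PT and 7935 to 10286 in 0.5 h PT, and the summed signal of both vegetative cell markers at 127158 to 137205 in 4 h PT and 116522 to 159854 in 0.5 h PT. The green tissue marker RCA, which encodes Rubisco activase, stayed at 53 to 205 in 4 h PT and 74 to 202 in 0.5 h PT, and the 2 tapetum and pollen coat markers summed to 12 to 158 in 4 h PT and 29 to 159 in 0.5 h PT. Single arrays held 5134 to 5786 probe sets at a log2 signal of at least 8 in 4 h PT and 5016 to 5466 in 0.5 h PT (exact permutation p = 0.429, two-sided). The 3′ to 5′ signal ratio of the ubiquitin control, a measure of RNA or cDNA length, was lower in every 4 h PT array (2.11 to 3.40) than in every 0.5 h PT array (3.49 to 3.86), with the smallest p that 4 against 4 arrays allow (exact permutation p = 0.0286, two-sided, 0.0857 after correction over 3 ratios). Its part in the differences below was not tested. The GAPDH and actin ratios overlapped.

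The study designed RT-PCR primers for 13 of the genes that rose here, and those of the 5 with the largest differences are shown because they are the part of each transcript that a reader could measure again without an array. Each pair is given 5′ to 3′ in lower case, left primer before right.
AT3G19940 left: ttgtctcaatttacgcggttg
AT3G19940 right: aacatgttgaccgagacgttg
AT5G11820 left: gtagcctcgcgattaactgttg
AT5G11820 right: gcctttggcctttattgtctct
AT1G66220 left: tgcttctagagtgcctcgtttc
AT1G66220 right: ggttgatcaaaccacctccata
AT3G15860 left: ccgtaactcaatgacgggatta
AT3G15860 right: tcagcgtccagataggtgtttt
CHX9 left: acttgctggtttgattcttgga
CHX9 right: tcatgtccactattcgttgtgc
The primers are 21 or 22 bases long, with 40.9 to 50% G and C. AT3G19940 and AT3G15860 lie on chromosome 3, AT5G11820 and CHX9 on chromosome 5 and AT1G66220 on chromosome 1.

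In the sentences that follow, per-array signals are in the order of replicates 1 to 4. The protein kinase gene AT5G35380 had 3286, 3831, 2611 and 9000 in 4 h PT, against 133, 109, 53 and 112 in 0.5 h PT. It rose by 4.70 ± 0.32 (log2, SE, adjusted p = 2.49e-06), the largest difference among probe sets of 1 gene. AT3G19690, which encodes a putative pathogenesis-related protein, had 11813, 13241, 7561 and 18518 in 4 h PT, against 328, 643, 585 and 580 in 0.5 h PT, a rise of 4.39 ± 0.30 (adjusted p = 2.49e-06). In both genes the lowest 4 h PT array was more than 10 times the highest 0.5 h PT array, replicate 4 was the highest of the 4 h PT arrays and replicate 3 the lowest. AT5G11820, whose product has no known function, had 2290, 2507, 510 and 4564 in 4 h PT and was near the floor in 0.5 h PT, at 63, 22, 52 and 10 (4.35 ± 0.45, adjusted p = 8.02e-05). AT3G15860, also of unknown function, had 1995, 2077, 755 and 2068 in 4 h PT, against 17, 36, 32 and 16 in 0.5 h PT (4.23 ± 0.26, adjusted p = 1.21e-06). Its replicates 1, 2 and 4 differed by less than 100 and only replicate 3 stood lower. Among all probe sets the largest rise, 4.92 ± 0.46, was that of a probe set shared by several carbonic anhydrase genes, at 5118, 5712, 912 and 7550 in 4 h PT and 37, 82, 46 and 100 in 0.5 h PT. Which of these genes gave the signal cannot be told apart. In all, 21 of the 116 rising probe sets were under 100 in every 0.5 h PT array.

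**Figure D2:**
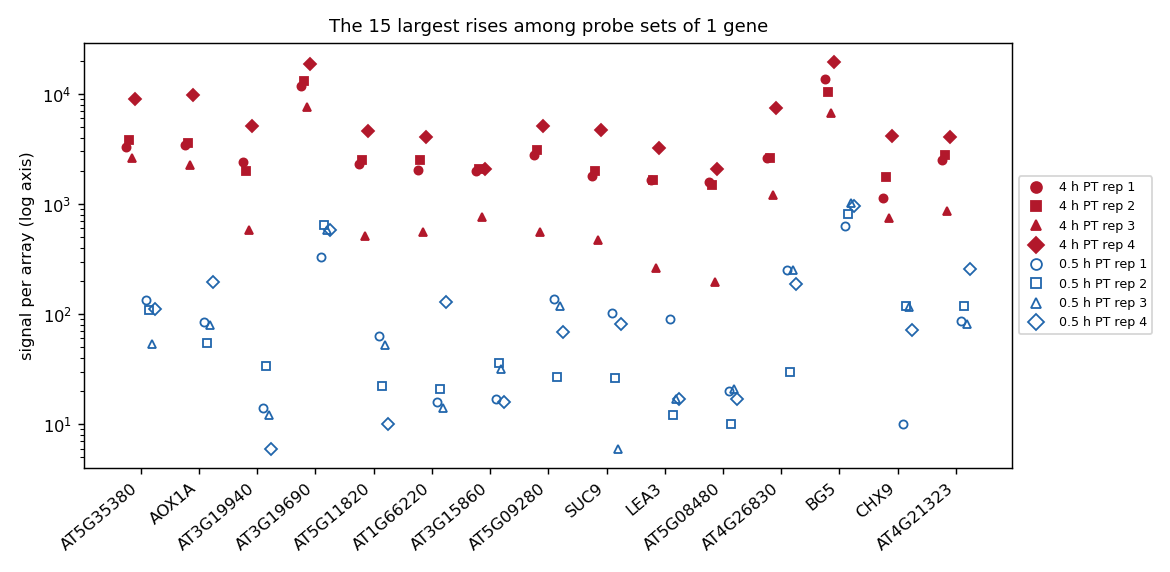
Signal of each array (log axis) for the 15 probe sets of 1 gene with the largest rises, 4 h PT (filled) left of 0.5 h PT (open), with a marker shape for each replicate. No gene's groups overlap, replicate 4 is the highest 4 h PT array in 14 of the 15 (in AT3G15860 it is replicate 2), and replicate 3 the lowest in all 15.

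Transporters of sugars were among the largest rises. On a list of 12 probe sets for sugar transporters and wall invertases, 4 rose, against 0.510% of all probe sets, and 0 fell. The median difference of the list was 0.68. The putative sugar transporter gene AT3G19940 had 2426, 2013, 585 and 5123 in 4 h PT, against 14, 34, 12 and 6 in 0.5 h PT (4.68 ± 0.49, adjusted p = 8.00e-05). The sucrose-proton symporter gene SUC9 had 1806, 1996, 469 and 4664 in 4 h PT, against 103, 26, 6 and 81 in 0.5 h PT (3.99 ± 0.48, adjusted p = 0.000243). AT3G19940 was under 100 in each 0.5 h PT array and SUC9 in 3 of the 4, and in both the 4 h PT replicates spread over about an order of magnitude. STP4, a monosaccharide-proton symporter gene, had 3077, 3984, 1179 and 6356 in 4 h PT and 162, 222, 172 and 245 in 0.5 h PT, a rise of 3.60 ± 0.35. INT4, which encodes a proton-coupled importer of myo-inositol, had 5903, 6266, 3036 and 11807 in 4 h PT and was already present in 0.5 h PT, at 942, 860, 817 and 1110 (2.62 ± 0.34). The other 8 probe sets of the list did not pass, among them the wall invertase gene CWINV2, which splits sucrose outside the cell, at 85360, 85120, 71886 and 58999 in 4 h PT and 81838, 76559, 78020 and 75698 in 0.5 h PT. The calls of SUC9 and INT4 ended with only the 8 arrays in the fit.

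Antiporters and channels gave a divided picture. CHX9, of the family of cation/proton exchangers, rose by 3.61 ± 0.42 (adjusted p = 0.000206), with 1131, 1766, 753 and 4117 in 4 h PT and 10, 119, 115 and 72 in 0.5 h PT. CHX21 of the same family had 1051, 1001, 358 and 859 in 4 h PT and 147, 158, 132 and 180 in 0.5 h PT (1.92 ± 0.29). The call of CHX21 ended in 10 of the 21 alternative settings, among them those without 4 h PT replicate 1 (1.78), 2 (1.80) or 4 (1.87) and without any single 0.5 h PT array (1.87 to 1.98), and that of CHX9 with only the 8 arrays. Of the list of 11 probe sets for proton, potassium and anion transport these 2 rose, against 0.510% of all probe sets. On that list 0 fell and the median was -0.04. Without overlap, 4 of the 11 were higher and 2 lower, against 3.54% and 2.98% of all probe sets. Counted over all probe sets with a CHX name here, a grouping made after the values were seen, 4 of 18 rose, against 0.510% of all probe sets. CHX26 and CHX12 were the others that rose. SLAH3, an anion channel gene, had 649, 711, 595 and 1285 in 4 h PT and 229, 195, 234 and 217 in 0.5 h PT, just short of 3-fold (1.57 ± 0.22, adjusted p = 0.000869). The potassium channel gene SPIK, which feeds potassium to the growing tube, went the other way without passing, at 17782, 16442, 16639 and 13793 in 4 h PT and 22863, 21393, 25018 and 25212 in 0.5 h PT (-0.55 ± 0.14, adjusted p = 0.0863), and its groups did not overlap. SLAH3 and SPIK were named after their values were seen. ABCB9, an ABC transporter gene, rose by 2.67 ± 0.29, at 4587, 4481, 4383 and 11038 in 4 h PT against 1053, 694, 683 and 948 in 0.5 h PT.

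Several genes for enzymes and proteins of the wall were among the rises. Of those in this paragraph, CEL3, AGP15, UGE1, UGE3 and AT5G45650 were chosen after their values were seen. AT4G26830, annotated as a hydrolase of O-glycosyl compounds, rose by 3.72 ± 0.46, at 2627, 2638, 1216 and 7512 in 4 h PT and 250, 30, 249 and 186 in 0.5 h PT. BG5, a putative beta-1,3-glucanase gene whose class of enzyme cuts callose, had 13567, 10494, 6738 and 19498 in 4 h PT, against 631, 808, 1026 and 952 in 0.5 h PT (3.70 ± 0.27, adjusted p = 3.39e-06). The pectate lyase gene AT5G09280 had 2804, 3118, 556 and 5143 in 4 h PT and 136, 27, 119 and 68 in 0.5 h PT (4.01 ± 0.49), with replicate 3 far below the other 4 h PT arrays. CEL3, of glycosyl hydrolase family 9, had 9540, 10521, 6460 and 17934 in 4 h PT and 1181, 1167, 1256 and 1150 in 0.5 h PT, and rose by 3.06 ± 0.24. BGLU14, a beta-glucosidase gene, rose by 2.62 ± 0.31, the wall-loosening expansin gene EXPA16 by 3.30 ± 0.36 and AGP15, which encodes an arabinogalactan protein, by 3.30 ± 0.33. UGE1 and UGE3, for epimerases that interconvert UDP-glucose and UDP-galactose, rose by 2.64 ± 0.28 and 2.23 ± 0.35. Proteases of the subtilase family gave 3 of the 116 rises, AT1G66220 with 2048, 2522, 562 and 4093 in 4 h PT against 16, 21, 14 and 128 in 0.5 h PT (4.27 ± 0.46), AT4G21323 (3.60 ± 0.42) and AT5G45650 (2.73 ± 0.40). Another 4 rising probe sets carry the description of GDSL lipases and each matches several genes. How many subtilase and GDSL lipase probe sets were measured was not counted. These 2 counts therefore give no share to set beside the 0.510% of all probe sets. The calls of AT4G26830 and AT5G09280 ended with only the 8 arrays in the fit.

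On the list of 13 pectin methylesterase probe sets, for enzymes that take methyl groups off wall pectin, 0 rose, 0 fell and the median difference was 0.01. Without overlap, 1 of the 13 was higher and 2 were lower, against 3.54% and 2.98% of all probe sets. The member of the list with the largest difference was AT5G49180, at 1019, 841, 347 and 543 in 4 h PT and a mean of 185 ± 50.3 in 0.5 h PT (SD, n = 4), without overlap (1.52 ± 0.28, adjusted p = 0.00973). It passed without 4 h PT replicate 3, the lowest 4 h PT array, at 1.78. AT2G26440, a pectinesterase gene that is not on the list, was lower at an adjusted p below 0.05 and is given below with the falls. Among 18 polygalacturonase probe sets, for enzymes that cut pectin chains, 0 rose and 0 fell (median 0.13), and AT4G13760 was farthest from 0 (0.92, adjusted p = 0.278). The 7 probe sets for wall synthesis and wall structural proteins also held 0 calls (median 0.29), with the extensin-like gene AT2G15880 farthest from 0, at 56476, 52368, 94684 and 72420 in 4 h PT and 45248, 59053, 41378 and 46401 in 0.5 h PT (0.50, adjusted p = 0.443). Its groups overlap.

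No member of 3 lists for the machinery of tip growth passed the rule on B and fold, which does not show that they were unchanged. The lists of 11 actin cytoskeleton probe sets (median -0.14), 8 exocyst and tip fusion probe sets (median -0.07) and 9 probe sets for calcium channels, pumps and kinases (median -0.07) held 0 rises and 0 falls. The members farthest from 0 were the profilin gene PRF5, whose product binds actin monomers (-0.49, adjusted p = 0.526), the exocyst subunit gene SEC5A (-0.63, adjusted p = 0.447) and CBL1, which encodes a calcium sensor (0.79, adjusted p = 0.309). Groups did not overlap for 1 of the 9 calcium probe sets, which was higher, and 1 of the 11 actin probe sets, which was lower. Over all probe sets 3.54% were higher and 2.98% lower without overlap. These members were the cation channel gene CNGC7, with 700, 897, 952 and 877 in 4 h PT and 521, 529, 538 and 548 in 0.5 h PT (0.61, adjusted p = 0.0557), and the formin gene FH3, with 5234, 4856, 5016 and 3429 in 4 h PT and 5905, 6855, 6562 and 5542 in 0.5 h PT (-0.43, adjusted p = 0.407). Both were named after their values were seen. Against 0.510% of all probe sets, 1 of the 15 for receptors, peptides and ROP signalling rose. It was ROPGEF13, whose product is an exchange factor that switches ROP GTPases on, with 2930, 2670, 3187 and 3740 in 4 h PT and 378, 315, 592 and 449 in 0.5 h PT (2.70 ± 0.27, adjusted p = 6.64e-05). The receptor kinase genes ANX1 and ANX2, which keep the tube from bursting, differed by 0.33 and 0.11 without passing, and RALFL4, for a peptide they perceive, by 0.15. Among the 50 probe sets with the strongest mean signal over the 8 arrays, 0 were called and the differences ran from -0.19 to 0.16.

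Kinases, hormone enzymes and a transcription factor were among the rises. CIPK13, CIPK18 and CIPK15, for kinases that calcium-sensing CBL proteins switch on, rose by 2.88 ± 0.38, 2.10 ± 0.32 and 1.98 ± 0.25. CIPK13 had 712, 667, 173 and 987 in 4 h PT, against 73, 5, 9 and 5 in 0.5 h PT. CIPK15 had 3116, 2960, 1787 and 5105 in 4 h PT and was clearly present in 0.5 h PT, at 792, 639, 674 and 800. These were 3 of the 7 probe sets that carry a CIPK name here, against 0.510% of all probe sets. This grouping too was made after the values were seen, and family members without a name were not counted. IPT7, for an enzyme of cytokinin synthesis, had 1012, 1205, 323 and 1647 in 4 h PT and 49, 93, 83 and 79 in 0.5 h PT (2.81 ± 0.39), and BR6OX2, for a late step of brassinosteroid synthesis and named after its values were seen, rose by 2.56 ± 0.30. The call of IPT7 ended with only the 8 arrays. Of 9 MADS-box and WRKY probe sets (median -0.22), 1 was called, against 0.510% of all probe sets. It was WRKY34, a pollen transcription factor gene, at 492, 510, 354 and 422 in 4 h PT and 77, 16, 100 and 176 in 0.5 h PT (1.80 ± 0.28, adjusted p = 0.0023). That call ended in 14 of the 21 alternative settings, among them those without any single 4 h PT array (1.73 to 1.89) and without 0.5 h PT replicate 1, 2 or 3 (1.51 to 1.85). None of 5 MYB subgroup 18 probe sets passed, and MYB120, a factor known to act in the tube, was nearest, at 983, 1149, 740 and 1508 in 4 h PT and 323, 476, 237 and 349 in 0.5 h PT (1.49, adjusted p = 0.0234). Its groups did not overlap. The jasmonate list of 4 probe sets held 0 calls, with the jasmonate transcription factor gene MYC2 at 75, 124, 173 and 223 in 4 h PT and 6, 25, 50 and 58 in 0.5 h PT (1.09, adjusted p = 0.0261).

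AOX1A, which encodes the alternative oxidase that passes electrons to oxygen past the cytochrome chain of mitochondria, had 3463, 3574, 2279 and 9745 in 4 h PT, against 85, 55, 79 and 195 in 0.5 h PT. It rose by 4.69 ± 0.43 (adjusted p = 2.80e-05). The other 4 probe sets of alternative respiration, for NADH dehydrogenases of the same bypass, did not pass, NDB2 being at 573, 545, 593 and 806 in 4 h PT and 497, 593, 329 and 353 in 0.5 h PT. The low oxygen list of 8 probe sets held 0 calls (median 0.02), with ACO1 farthest from 0 (0.63, adjusted p = 0.517). Among 14 probe sets for ER chaperones and the unfolded protein response, 0 rose and 0 fell by the rule on B and fold, with a median of 0.05. ATERDJ3B, for a co-chaperone of the ER, was lower at an adjusted p of 0.0335, at 2251, 2205, 2499 and 1726 in 4 h PT and 3572, 3476, 3653 and 3635 in 0.5 h PT (-0.72 ± 0.16). Of 7 dehydration-linked probe sets (median -0.09), 1 was called, against 0.510% of all probe sets. It was LEA3, of the late embryogenesis abundant proteins linked to drying, at 1655, 1651, 260 and 3218 in 4 h PT and 91, 12, 17 and 17 in 0.5 h PT (3.83 ± 0.53). The call of LEA3 ended with only the 8 arrays.

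Heat shock transcripts were higher in 4 h PT as a group, but in another order of replicates than most of the 116 rises. Of 15 probe sets for heat shock proteins and factors, 3 rose by the rule on B and fold, against 0.510% of all probe sets. At an adjusted p below 0.05, 9 were higher, against 1.26% of all probe sets. In 10 the groups did not overlap, against 3.54% of all probe sets higher in every 4 h PT array. The median difference of the list was 2.28. HSP17.6A, for a small chaperone of the cytosol, had 1252, 538, 2151 and 3640 in 4 h PT and 104, 211, 158 and 116 in 0.5 h PT (2.95 ± 0.40, adjusted p = 0.000682). HSP101, whose product pulls proteins out of aggregates, had 388, 227, 1038 and 1546 in 4 h PT, against 49, 17, 95 and 22 in 0.5 h PT (2.72 ± 0.42, adjusted p = 0.00188). Its call ended in 8 of the 21 settings, among them those without 4 h PT replicate 3 (2.50) and without 0.5 h PT replicate 1 (2.75), 2 (2.59) or 4 (2.62). ATHSP22.0 had 322, 212, 515 and 451 in 4 h PT and 6, 16, 20 and 32 in 0.5 h PT (2.37 ± 0.21, adjusted p = 2.76e-05), and its call ended with a larger offset before the log (1.18). HSP90.1, a chaperone that holds signalling proteins, had 847, 557, 1875 and 5142 in 4 h PT, against 243, 219, 154 and 101 in 0.5 h PT, and missed the limit on B (2.71, adjusted p = 0.00502). The coactivator gene MBF1C had 1165, 637, 1826 and 3501 in 4 h PT and 248, 213, 246 and 253 in 0.5 h PT (2.35, adjusted p = 0.00958). In 14 of the 15 probe sets both replicate 3 and replicate 4 of 4 h PT were above both replicate 1 and replicate 2, which was so in 22.3% of all probe sets and in 12 of the 116 rises. Without 4 h PT replicate 2, 9 of the 15 passed, and without replicate 1, 5. With only the 8 arrays in the fit 1 of the 15 passed, and the calls of HSP17.6A and HSP101 ended.

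The study examined insertion lines of genes that it had picked as higher in 4 h PT than in dry pollen. That is another contrast than the one described here but uses the same 4 h PT arrays, so the direction of these genes here is not independent evidence. Of 22 such probe sets, 13 rose, against 0.510% of all probe sets, and 0 fell. All 22 were higher in every 4 h PT array than in any 0.5 h PT array, against 3.54% of all probe sets. The median difference was 2.12. The lipid transfer protein gene AT4G08670 had 3988, 4356, 1876 and 10891 in 4 h PT and 434, 298, 193 and 340 in 0.5 h PT (3.58 ± 0.40). AT1G60420, for a protein with DC1 domains, ran over 1294, 2297, 2672 and 9926 in 4 h PT and was nearly constant in 0.5 h PT, at a mean of 264 ± 5.90 (SD, n = 4; 3.22 ± 0.45). AT5G10695, of unknown function, had 3312, 3434, 4162 and 4558 in 4 h PT and 764, 555, 869 and 865 in 0.5 h PT (2.26 ± 0.20, adjusted p = 2.76e-05). AT2G05160 (2.13 ± 0.30), which encodes a zinc finger protein, the ankyrin kinase gene AT4G18950 (1.73 ± 0.21), AT1G09575 of unknown function (1.71 ± 0.26) and the ENTH domain gene AT2G01920 (1.62 ± 0.22) rose less. With only the 8 arrays in the fit 5 of the 22 passed, and the call of AT1G60420 was among those that ended. The calls of AT2G05160, AT4G18950, AT1G09575 and AT2G01920 ended in 3 to 13 of the 21 settings, most often that of AT1G09575, which ended without any single 0.5 h PT array (1.67 to 1.73) and without 4 h PT replicate 1 (1.77), 2 (1.77) or 4 (1.49). The call of AT2G05160 ended without 4 h PT replicate 1 (2.11) or 2 (2.10), that of AT2G01920 without 4 h PT replicate 2 (1.56) or 4 (1.42), and that of AT4G18950 without 4 h PT replicate 4 (1.56). The 9 that did not pass were MBF1C, HSP18.2, TIL, AT2G46600, MYB120, AT3G46220, CXE18, AT1G74450 and OCT2, with differences of 2.35 to 0.84. OCT2, of an organic cation transporter family, was smallest, at 1482, 1712, 1197 and 3042 in 4 h PT and 905, 748, 1004 and 1196 in 0.5 h PT.

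Falls were small on the log2 scale used here, whose offset understates changes near the floor. The 34 probe sets that were lower at an adjusted p below 0.05 ran from -1.37 to -0.59 with a median of -0.89. Their median signal was 37 in 4 h PT and 156 in 0.5 h PT. Of these 34, 20 had a mean under the limit of expression in 0.5 h PT. With a smaller offset of 16, 3 falls passed the rule on B and fold. The genes named from here to the end of the paragraph were chosen after their values were seen. AT2G26440, a pectinesterase gene, had 8, 21, 11 and 24 in 4 h PT and 116, 207, 94 and 173 in 0.5 h PT (-1.37 ± 0.21, adjusted p = 0.00202). Among the 2581 probe sets with a mean signal over 1000 in 0.5 h PT, 10 were lower and 44 higher at that limit, and none of the 2581 had a difference below -0.89. RR2, annotated as a pollen transcription factor for nuclear genes of mitochondrial complex I, had 5330, 5074, 4127 and 3666 in 4 h PT, against 7712, 7932, 7639 and 6979 in 0.5 h PT (-0.74 ± 0.15, adjusted p = 0.0181). AT4G26650, with no description in the files, had 15387, 13411, 13704 and 12550 in 4 h PT and 20834, 18973, 22036 and 20796 in 0.5 h PT (-0.59 ± 0.14, adjusted p = 0.0462). The histone deacetylase gene HDA15 had 1117, 1146, 1002 and 891 in 4 h PT and 1670, 1683, 1642 and 1446 in 0.5 h PT (-0.61 ± 0.14, adjusted p = 0.0485). In each of these 4 genes the groups did not overlap. Of the 34, 23 match 1 named gene.

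The 4 h PT replicates differed from each other more than the 0.5 h PT replicates did. Over all probe sets the SD of log2(signal + 64) was larger in 4 h PT for 59.5% (median 0.405 in 4 h PT, 0.348 in 0.5 h PT), and over the 5815 with a mean of at least 8 for 69.2% (0.267 and 0.194). Over the 116 rises it was larger for 92.2% (0.713 and 0.326). Those were picked as high in 4 h PT, and 71 of them had a 0.5 h PT mean under the limit of expression. The offset narrows the SD at such levels, so this last share is partly set by the choice of probe sets. Pairs of 4 h PT arrays correlated at 0.928 to 0.952 and pairs of 0.5 h PT arrays at 0.945 to 0.957 (Pearson's r across probe sets, which are not independent replicates), and replicates 3 and 4 of 4 h PT were the pair least alike. With the mean of the other 3 arrays of its group, 4 h PT replicate 4 correlated at 0.948, below replicates 1 to 3 at 0.961, 0.966 and 0.957 and below the 0.5 h PT arrays at 0.961 to 0.971. Over the 5815 probe sets, the first principal component of the 4 h PT arrays held 50.2% of their variance and set replicate 4 (score 28.0) apart from replicates 1 and 2 (-14.1 and -13.1) with replicate 3 between (-0.71). The second held 34.3% and set replicate 3 (-24.3) apart from the other 3 arrays (7.55 to 8.72).

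In most of the 116 rises replicate 4 was the highest or replicate 3 the lowest of the 4 h PT arrays. Replicate 4 was the highest 4 h PT array in 100 of them and replicate 3 the lowest in 94, against 7849 and 5635 of all 22746. Above the 0.5 h PT mean, the median rise was 2.49, 2.63, 1.91 and 3.40 in replicates 1 to 4, while single 0.5 h PT arrays lay between -0.04 and 0.02. The largest SDs among rises that match 1 gene were those of LEA3 (1.43), AT5G08480 (1.40), AT5G09280 (1.33), SUC9 (1.30), AT5G11820 (1.28) and AT3G19940 (1.24). AT5G08480, which encodes a protein with a VQ motif, had 1591, 1474, 196 and 2096 in 4 h PT and 20, 10, 21 and 17 in 0.5 h PT (3.76 ± 0.48), and its call ended with only the 8 arrays. AGP1, an arabinogalactan protein gene, did not pass: it had 410, 402, 41 and 1611 in 4 h PT, against 30, 43, 26 and 29 in 0.5 h PT (2.21 ± 0.55, adjusted p = 0.0655), and it passed without 4 h PT replicate 3, at 2.90. In that replicate AGP1 was within the range of the 0.5 h PT arrays.

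Among rises that match 1 gene, the smallest spreads were those of ROPGEF13 (SD 0.20), WRKY34 (0.21), AT5G10695 (0.22), LSU2 (0.23), AT2G30630 (0.35) and AT4G18950 (0.36). LSU2, of a family linked to low sulphur, had 1393, 1085, 1236 and 1598 in 4 h PT and 313, 321, 328 and 291 in 0.5 h PT (1.87 ± 0.17, adjusted p = 2.95e-05), and its call ended with a larger offset before the log (1.47). AT2G30630 had 428, 441, 288 and 575 in 4 h PT and 71, 18, 10 and 129 in 0.5 h PT (2.12 ± 0.29), and its call ended with a larger offset before the log, with only the 8 arrays and without 4 h PT replicates 3 and 4 together. The 12 rises in which replicates 3 and 4 were both above replicates 1 and 2 took in HSP17.6A, HSP101, ATHSP22.0, AT2G29500 (a small heat shock protein gene), CLPB3 (a chloroplast relative of HSP101), a probe set for other class I small heat shock genes, ROPGEF13, AT5G10695, AT5G13200, AGD11, AT1G60420 and the calmodulin-related gene AT1G76640. The same order was seen in 2 genes with wide spreads that did not pass: AT5G48570, a putative FK506-binding protein gene, had 985, 1054, 3549 and 7891 in 4 h PT and 703, 902, 882 and 1561 in 0.5 h PT, and AT3G12050, annotated with a domain that activates HSP90, had 51, 169, 588 and 1048 in 4 h PT and 132, 240, 13 and 108 in 0.5 h PT. Neither passed (adjusted p = 0.422 and 0.478). The expansin gene EXPA24, named after its values were seen, had the reverse order, at 6744, 8376, 2022 and 1432 in 4 h PT, against 6209, 9267, 5146 and 5527 in 0.5 h PT (-0.81, adjusted p = 0.582). What set these replicates apart was not tested, and the labels give nothing that divides them.

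**Figure D3:**
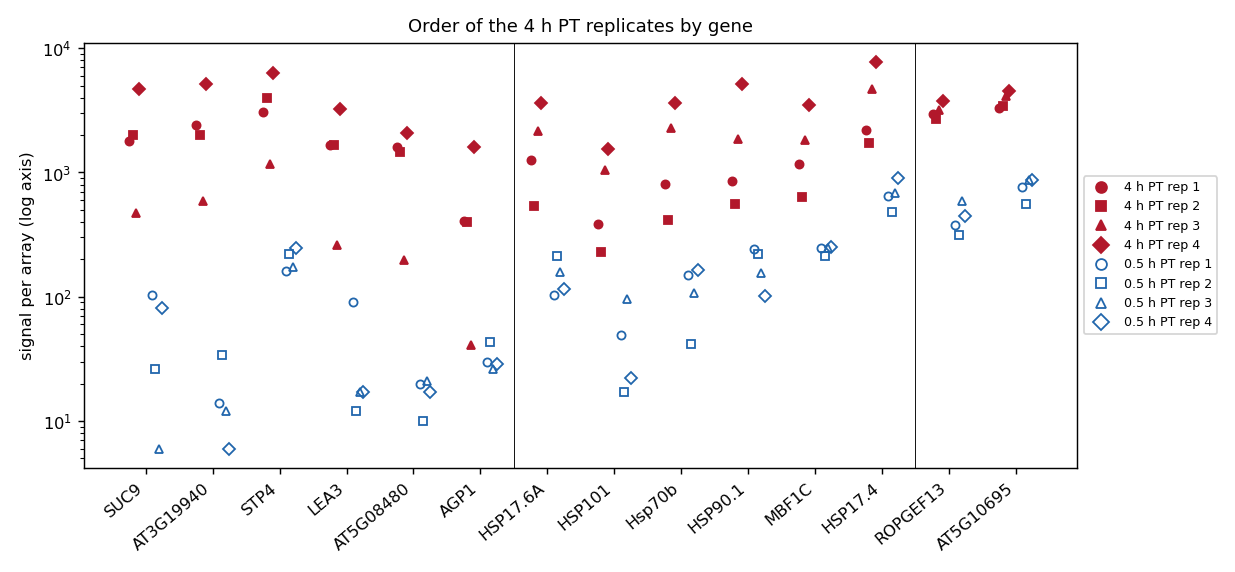
Signal of each array (log axis) for genes with 3 kinds of replicate order, 4 h PT (filled) left of 0.5 h PT (open), with the genes chosen for display after their values were seen. In the left panel replicate 3 (triangles) is lowest and replicate 4 (diamonds) highest, in the middle panel of heat shock genes replicates 3 and 4 are both above replicates 1 and 2, and ROPGEF13 and AT5G10695 on the right hardly spread.

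The spread can be set against the difference between SIV PT and dry pollen, whose means use none of the 8 arrays but whose calls come from the same fit and share its estimate of the spread. By the same rule 929 probe sets were higher in SIV PT than in dry pollen (4.08%) and 642 lower (2.82%). Of the 116 rises at 4 h, 112 were among the 929 (96.6% of the rises and 12.1% of the 929) and 0 among the 642. With the 7 arrays alone in the fit the numbers were 817 higher and 581 lower, and again 112 of the 116 were among those higher. Over the 929 probe sets the median difference from the 0.5 h PT mean was 0.46, 0.50, 0.42 and 0.88 in 4 h PT replicates 1 to 4, and within -0.02 to 0.02 in the 0.5 h PT arrays. Over the 642 it was -0.24, -0.22, -0.19 and -0.60 in 4 h PT, against -0.01 to 0.01 in 0.5 h PT. Replicate 4 lay farthest from 0.5 h PT in both sets, and replicates 1 to 3 lay on the same side of 0 and close together. The probe sets lower in SIV PT than in dry pollen thus had lower medians in every 4 h PT array, although 0 single probe sets fell by the rule between 0.5 h and 4 h. SIV PT arrays also differed in control ratios of 3′ to 5′ signal. GAPDH was at 6.59 to 9.72 in SIV PT and 1.4 to 2.06 in dry pollen, and actin at 1.71 to 2.08 and 0.263 to 0.794. The ubiquitin ratios overlapped. By the study's methods, less total RNA was labelled for SIV PT. The part of this in the sets was not tested.

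**Figure D4:**
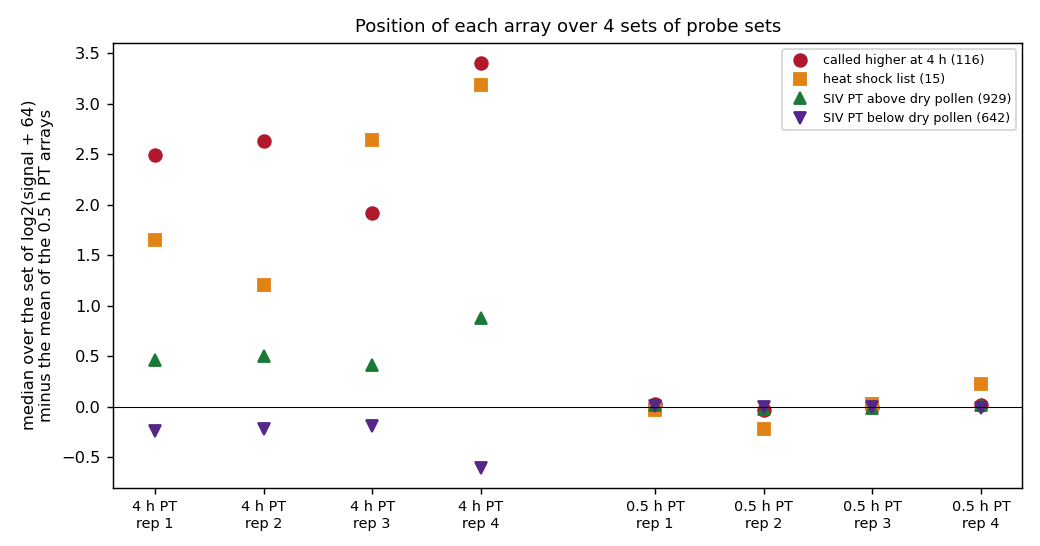
For each 4 h PT array (left) and 0.5 h PT array (right), the median over a set of probe sets of log2(signal + 64) minus the mean of the 0.5 h PT arrays, so that the 0.5 h PT arrays lie near 0 by construction. Replicate 4 is highest over the 116 rises (3.40) and the 929 probe sets higher in SIV PT than dry pollen (0.88) and lowest over the 642 lower ones (-0.60), replicate 3 is lowest over the 116 (1.91), and over the heat shock list replicates 3 and 4 (2.64 and 3.19) stand above 1 and 2 (1.65 and 1.21).

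Most of the rises were small at 0.5 h against dry pollen, and most were higher still in SIV PT, which were grown in another way and are no later time of the same culture. Their median difference at 0.5 h from dry pollen was 0.22, and the SIV PT mean was above the 4 h PT mean in 109 of the 116. SUC9 had mean signals of 26, 54, 2234 and 30139 in the order dry pollen, both stages on medium and SIV PT, AOX1A 96, 104, 4765 and 15563, and ROPGEF13 159, 434, 3132 and 7167. A few were already on their way at 0.5 h, such as AT1G76640, with 208, 3191, 14892 and 7840, and the putative auxin-responsive gene AT4G12980, with 57, 712, 6634 and 11564, both named after their values were seen. In 7 of the 116 the SIV PT mean was below that of 4 h PT, namely BG5 (12574 in 4 h PT, 3377 in SIV PT), AT1G76640, AT5G10695 (3867 in 4 h PT, 1737 in SIV PT), EXPA16 (3994 in 4 h PT, 2137 in SIV PT), AT5G46780, ERD14 and ATHSP22.0 (375 in 4 h PT, 154 in SIV PT). In 4 of these 7 every SIV PT array was below every 4 h PT array. The rises outside the 929 were 4 of the same genes, EXPA16, ERD14, which encodes a dehydrin, ATHSP22.0 and AT5G46780, a gene for a VQ motif protein.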

How the data were processed

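RNA of 15 Arabidopsis samples was hybridised to ATH1 arrays, and the value table that the authors deposited gives 1 intensity per probe set and array. Per the labels and the study's methods these intensities are GCOS signals scaled to a common level on every array. No source used here gives the GCOS version. Array data give no read depth, so the number of arrays limits the precision. From there, 64 control probe sets were left out, log2(signal + 64) was taken and 22746 probe sets were fitted with limma 3.58.1 in R 4.3.3, with 1 mean for each of the 4 conditions, all 15 arrays sharing 1 estimate of the spread (11 residual degrees of freedom), and Benjamini-Hochberg adjustment over all probe sets. Standard errors and adjusted p-values in the text are from that fit, and both may be too small for rises that spread widely in 4 h PT. Numbers per array and control ratios were compared by exact permutation. The script was tested on simulated data.

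Gene names came from the platform annotation for 13345 probe sets and from the study's own tables for 1949. Of the rest, 583 match several genes, 141 are named differently by the sources and 6728 are unnamed here. Names from the study's tables tilt towards changed genes, so the share of a named family that rose may be too high. Groups were taken from the sample titles.

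The comparison, gene lists and tests were chosen with earlier results of these data known. Genes named are, among probe sets of 1 gene, up to 15 with the largest called difference in each direction, up to 4 called members of each list or else its member farthest from 0, up to 6 called with the largest and up to 6 with the smallest SD in 4 h PT, up to 6 well-detected ones with the largest SD, the genes the study examined by insertions, and up to 6 called ones that were near the floor in 0.5 h PT. Other genes named, whether they rose or not, are examples of a list, a gene family or a course, chosen after their values were seen. Alternatives were other offsets, normalizations, filters, array weights, variance models, call rules, sets of arrays in the fit, a replicate block and leaving out each array.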

Additional observations from a re-analysis of the deposited data

Results flagged for a closer look

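Of 144 groups of 4 arrays examined, 15 held 1 array whose gap to its nearest neighbour, as a share of the whole range, taken on log2(signal + 64) for genes and on the ratios and medians as printed for the rest, exceeded Dixon's critical value for 4 values, which chance alone passes in about 1 of 20 groups. In 4 h PT, replicate 4 stood above the others for TIL, a lipocalin gene (0.857, signals 1087, 985, 1104 and 2159), ABCB9 (0.951, signals 4587, 4481, 4383 and 11038) and AT1G09575 (0.846, signals 1157, 1156, 1037 and 2099). Replicate 3 of 4 h PT stood below the others for AT5G08480 (0.839, signals 1591, 1474, 196 and 2096) and AT3G15860 (0.959, signals 1995, 2077, 755 and 2068). Over the 642 probe sets lower in SIV PT than in dry pollen, the median of 4 h PT replicate 4 was apart from the others (0.881, medians -0.24, -0.22, -0.19 and -0.60).

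In 0.5 h PT, replicate 1 was low for AT3G19690 (0.84, signals 328, 643, 585 and 580) and PRF5 (0.849, signals 32016, 41849, 43882 and 43286) and high for LEA3 (0.915, signals 91, 12, 17 and 17). Replicate 2 was low for MBF1C (0.834, signals 248, 213, 246 and 253), AT2G05160 (0.852, signals 259, 99, 272 and 238) and AT1G09575 (0.838, signals 363, 319, 372 and 371). Replicate 4 was high for AT1G66220 (0.9, signals 16, 21, 14 and 128). Among the control ratios of 3′ to 5′ signal in 4 h PT, replicate 2 was high for actin (0.92, ratios 0.0414, 0.684, 0.0927 and 0.0476) and replicate 3 for GAPDH (0.853, ratios 1.55, 1.69, 2.5 and 1.65).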

How the results depend on the processing

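The 116 rises and 0 falls became 45 and 0 with only the 8 arrays in the fit, and 287 and 34 at an adjusted p below 0.05 with no limit on the fold. With an offset of 16 there were 3 falls. The other settings, except those that left out 1 array, gave 84 to 157 rises and 0 falls. Leaving out 1 array gave 87 (without 4 h PT replicate 4) to 144 rises (without 4 h PT replicate 3), and 79 of the 116 passed in all 8 of these fits. Of 35 named rises, 15 kept the call in every setting with a value. Fits with 1 variance per condition (115 rises) and without 4 h PT replicates 3 and 4 together (115, of which 99 were among the 116) were chosen after seeing the data.

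Same-numbered arrays deviated from their group means with correlations of 0.023, 0.17, 0.068 and 0.162, so the replicate numbers were not taken to pair them. With the replicate number as a block 116 rises were again called, of which 106 were the same, and 5 heat shock probe sets passed.

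Genes near 0 changed sign. RCA was at -0.008 with an offset of 16, -0.026 after quantile normalization, -0.034 after median centring and -0.187 to 0.213 when 1 array was left out. MGH3 ran from -0.014 to 0.11 when 1 array was left out, and AT3G12050 was at -0.034 without 4 h PT replicates 3 and 4 together. For the within-group spread (SD) per probe set in 4 h PT against 0.5 h PT, the share larger in 4 h PT was 57.9% after quantile normalization and 58.8% with an offset of 16. The correlation of each array with the mean of the other arrays of its group averaged 0.925 with an offset of 16 and 0.981 with the larger offset, against 0.958. At a log2 limit of 9, 4 h PT arrays held 62.5 more expressed probe sets on average (3714.2 in 4 h PT, 3651.8 in 0.5 h PT, exact permutation p = 0.0286, two-sided). The cause was not tested.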
